A study of Mus musculus with 8 samples.

Results

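The comparison of Carm1 KO with control at 1 week rests on 4 of the 8 RNA sequencing libraries of the series and on 14665 of the 54752 genes in the deposited count table, those that passed a filter on low counts. It asks how loss of Carm1 changes gene expression in mouse heart muscle cells early in their maturation; the labels do not say whether the week counts from birth or from injection. Both groups carried the Carm1fl/fl genotype, in which the gene can be deleted by Cre recombinase. The control mice were injected with AAV-GFP and the KO mice with AAV-CRE. For both groups the labels give postnatal day 1 for library 1 and postnatal day 2 for library 2. They give days 3 and 4 for libraries 1 and 2 at 3 weeks. These days run on with library and age, so they may not be the true ones. Per the labels' protocols the virus was AAV9, an adeno-associated virus that infects heart muscle well, the hearts were mosaic and held infected cardiomyocytes, and the cardiomyocytes were isolated on a Langendorff perfusion system. The sources used here do not give the promoter that drives Cre or any sorting of infected cells. Since all mice given Cre had floxed Carm1, effects of Cre as such and of Carm1 loss cannot be told apart. The series also holds 2 control and 2 KO libraries at 3 weeks, which enter the same fit and serve below as a second comparison that shares no library with the first.

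CARM1 adds methyl groups to arginine residues of histones and of many proteins that bind DNA and RNA, and it acts as a coactivator of nuclear receptors and other transcription factors. In the weeks after birth, mouse cardiomyocytes stop dividing, turn from glucose to fatty acids as fuel, and replace fetal with adult forms of the contractile proteins. Cyclic AMP, raised by adrenergic stimulation, activates the factor CREB, which switches on a set of rapid response genes, while actin polymerisation and growth factors act through SRF with its MRTF coactivators, and growth factors through AP-1 and EGR proteins.

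The 4 libraries held between 20818285 and 36136575 counts, and mitochondrially encoded genes took between 40.7 and 42.9% of them. CPM below means counts scaled to a common library size (edgeR's CPM), and paired values are library 1 and library 2 of a group. Carm1 (chromosome 9, 21546894 to 21592623, GRCm38) stood at 40.5 and 39.1 CPM in control and 22.2 and 22.4 CPM in KO, a 1.78-fold lower level in KO (-0.83 ± 0.055, log2 fold change ± SE, the form of all such values below). Its count includes exons outside any deleted part and transcripts of any uninfected cells. The Y-linked genes separated the groups as well: Eif2s3y, Kdm5d and Uty had 0 counts in both control libraries, while Ddx3y stood at 0.0420 and 0 CPM in control and 40.9 and 39.5 CPM in KO. At 3 weeks the presence of Y-linked transcripts was the other way round, 61.3 and 62.4 CPM in control and 0.106 and 0.0697 CPM in KO for Ddx3y. The X-linked genes that escape inactivation went the opposite way at each age, as given below. Carm1 loss therefore cannot be told apart at 1 week from a difference in sex between the groups, or from whatever else goes with these transcripts. For this reason the results below give, for many but not all of the gene groups, how many changed members were called in the same direction at 3 weeks. Of all genes called higher at 1 week 46.9% were called higher again, and of those called lower 49.4% were called lower again. The counts by group are to be read against these shares. Each p-value reflects only how far the libraries of a group lie apart, which may be technical spread. Of 1232 genes on the lists used here 53 were listed at 0 in all 8 libraries, among them the cardiac actin Actc1, troponin Tnnc1, phospholamban (Pln) and Srf; a listed 0 is not taken as absence. The 10 measured cardiomyocyte markers summed to between 34320 and 36550 CPM. Such a sum cannot tell isolated cardiomyocytes from whole heart, and markers of other heart cells were counted too, as given below.

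Nearly as many genes were lower as higher in KO, but the large changes were mostly upward. Of the 14665 genes tested, 6305 passed an adjusted p of 0.05 (43%) in the quasi-likelihood test of edgeR, with p-values adjusted by Benjamini and Hochberg's method, the test behind every call and p-value below; 3373 were higher (23%) and 2932 lower (20%). At least 2-fold changes numbered 944 (6.44%), 722 upward (4.92%) and 222 downward (1.51%), and at least 8-fold changes 85 and 20. The median log2 fold change was 0.48 among genes called higher and -0.30 among those called lower, against 0.02 over all genes tested. Libraries of the 2 groups did not overlap in 10353 genes (70.6%), so absence of overlap alone singles out no gene. This holds for every gene below whose groups are described as separate. The fifth of genes with the lowest CPM had a median of 0.17 and the fifth with the highest CPM one of -0.07. Between 40.1 and 47.7% of the genes tested were called on each autosome. On chromosome X 56 genes were higher and 138 lower of 515.

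**Figure D1:**
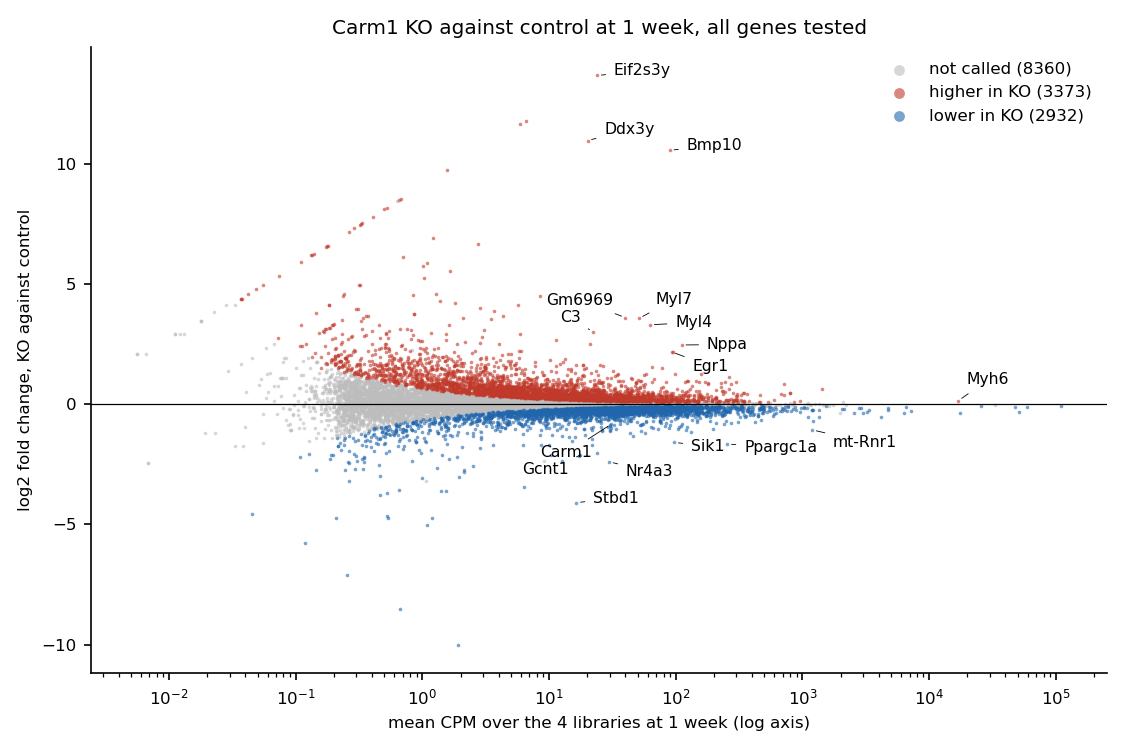
Log2 fold change of KO against control at 1 week (vertical axis) against the mean CPM of the 4 libraries (horizontal log axis) for the 14665 genes tested, coloured by call. The 3373 higher genes reach further from 0 than the 2932 lower ones; the straight lines of points at low CPM are genes with 0 counts in one group, whose fitted fold depends on the prior count.

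Stbd1, which anchors glycogen to membranes for its breakdown in lysosomes, showed the largest fall among genes with a mean of at least 10 CPM. It lies on chromosome 5 (92603041 to 92606579, GRCm38) and stood at 31.3 and 30.9 CPM in control and 1.89 and 1.72 CPM in KO. The groups were far apart (-4.10 ± 0.1 log2 fold change, adjusted p = 2.1e-42), and at 3 weeks the order was reversed, with 5.25 and 6.36 CPM in control and 21.2 and 20.2 CPM in KO. Next in size came the nuclear receptor Nr4a3, the long noncoding RNA Gm19277 (-2.36), the endothelial and cardiac BMP target Tmem100 (-2.14), the glycan-branching enzyme Gcnt1 (-2.13) and the small GTPase Gem. Gcnt1 fell further at 3 weeks, from 35.1 and 37.5 CPM to 3.78 and 4.39 CPM. Snap91, a clathrin assembly protein (-2.02), the ERK phosphatase Dusp5 (-1.69), the scaffold proteins Epb41l3 (-1.53) and Homer2 (-1.45) and the guanine nucleotide exchange factor Rasgef1b (-1.33) were also among the 15 largest falls. The processed pseudogene Gm48111 (-1.38) belonged to them, and Gm6969, another processed pseudogene, to the largest rises (3.60); both can share reads with their parent genes and are uncertain. The mitochondrial 12S ribosomal RNA mt-Rnr1, picked out after its values were seen, fell from 1633 and 1603 CPM to 774 and 766 CPM.

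Genes that cyclic AMP and CREB are known to induce were lower in KO at 1 week. Of 20 measured members 13 fell (20% of all genes tested were lower) and 3 rose, and 7 of the 13 fell at least 2-fold (1.51% of all genes tested did). The list's median log2 fold change was -0.65, against 0.02 over all genes. Nr4a3, an early-response nuclear receptor, stood at 48.8 and 51.4 CPM in control and 9.77 and 9.26 CPM in KO. Both control libraries were above both KO libraries by about 5-fold (-2.40 ± 0.068, adjusted p = 1e-38). The related receptor Nr4a1 went from 181 and 182 CPM to 82.9 and 80.6 CPM (-1.15 ± 0.037). Gem, a GTPase that inhibits L-type calcium channels, was at 16.8 and 16.6 CPM in control and 4.27 and 3.49 CPM in KO (-2.10 ± 0.099, adjusted p = 3.5e-27). Sik1, a kinase that restrains CREB coactivators, stood at 143 and 149 CPM and 49.5 and 47.5 CPM. Neither gene showed any overlap between the groups (70.6% of all genes tested showed none). Sik1 changed by -1.59 ± 0.041 on the log2 scale. Ppargc1a, the coactivator PGC-1α of mitochondrial genes, went from 394 and 383 CPM to 125 and 121 CPM (-1.66 ± 0.035). Rgs2, which limits signalling by Gq-coupled receptors, went from 74.2 and 71.9 CPM to 33.8 and 32.9 CPM, and the insulin receptor substrate Irs2 from 71.4 and 73.6 CPM to 42.6 and 43.1 CPM. The cyclic AMP phosphodiesterase Pde4d fell as well (-0.55 ± 0.05).

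The 3 members that rose were Fos, the kinase gene Pim3 (0.41) and the CREB coactivator gene Crtc3 (0.35). Fos, which growth factor signals also induce, went from 20.1 and 21.1 CPM to 50.2 and 49.4 CPM (1.27 ± 0.051). Per1, Fosb, Stc1 and Sik2 did not pass the test, with log2 fold changes of -0.08, 0.07, 0.14 and 0.21. At 3 weeks 7 of the 13 genes lowered at 1 week were lower again (49.4% of all genes lowered at 1 week were). Ppargc1a and Irs2 were among these, with log2 fold changes of -0.80 and -1.22 at 3 weeks; Nr4a3 was then near 2 CPM in every library and Gem was higher in KO (0.98). The control group at 1 week enters both the KO difference at 1 week and the change of control with age, so the levels at both ages are only set side by side in the plot of single libraries.

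**Figure D2:**
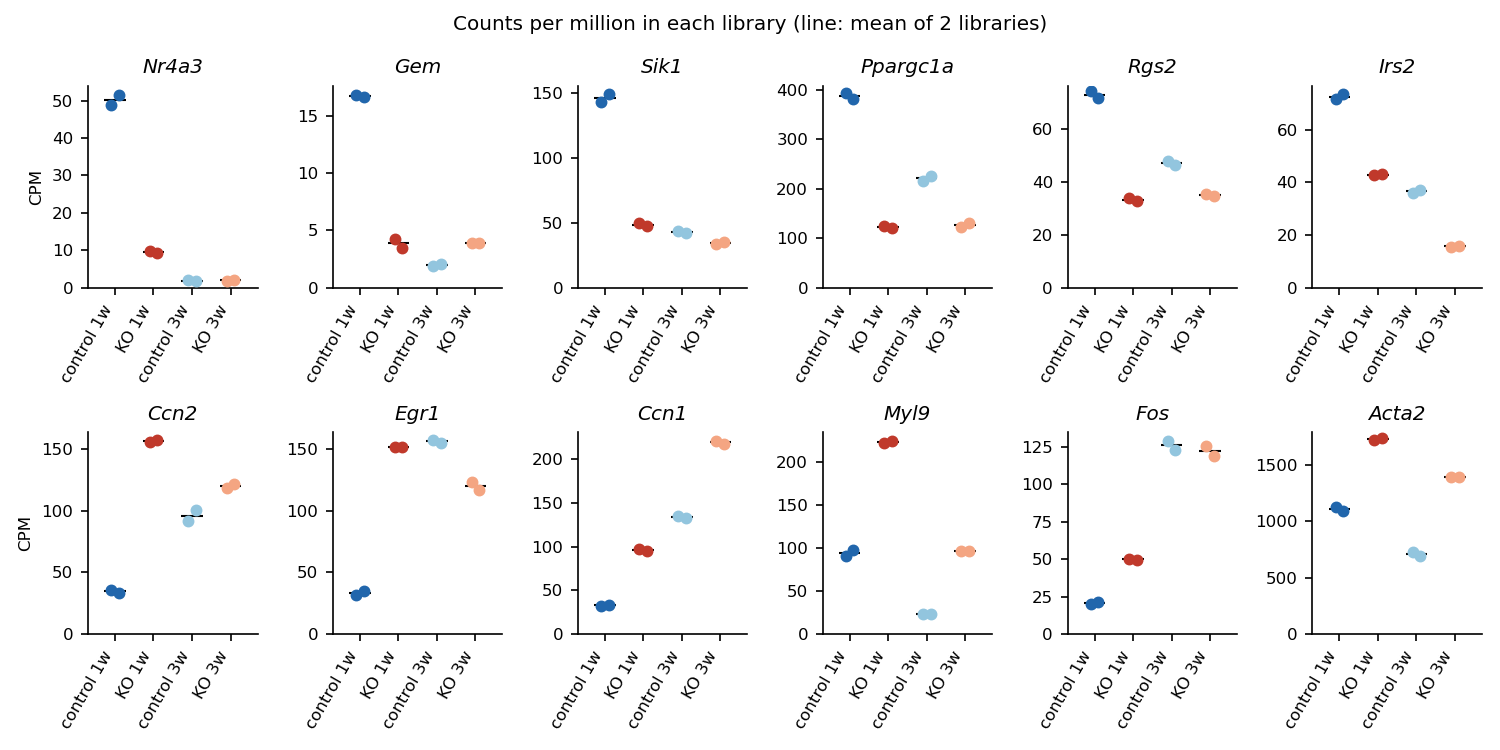
CPM (vertical axes, from 0) of 12 genes in every library of control and KO at 1 and 3 weeks; points are libraries and lines the mean of 2. In the upper row the KO libraries at 1 week lie below control, for example 9.77 and 9.26 CPM against 48.8 and 51.4 CPM for Nr4a3; in the lower row they lie above, for example 156 and 157 CPM against 35.7 and 33.6 CPM for Ccn2.

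The genes that produce and receive the cyclic AMP signal moved less. Of 27 genes for adrenergic and muscarinic receptors, G proteins, adenylyl cyclases, kinases and phosphodiesterases, 14 fell and 3 rose (median -0.20). The muscarinic receptor Chrm2, which slows the heart in response to acetylcholine, went from 46.6 and 46.4 CPM to 25.3 and 27.4 CPM (-0.82 ± 0.048, adjusted p = 1.4e-22). The inhibitory G protein Gnao1 rose from 5.88 and 5.74 CPM to 15.4 and 14.5 CPM (1.37 ± 0.09, adjusted p = 2.8e-20). The β1-adrenergic receptor Adrb1 did not pass the test (-0.20). The protein kinase A subunits Prkar1a (-0.42) and Prkaca (-0.18) were lower.

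Targets of SRF and immediate early genes of the AP-1 and EGR families were mostly higher. In the SRF and MRTF list 17 of 20 members rose (23% of all genes tested were higher) and 0 fell, with a median of 0.53. All 17 were again higher at 3 weeks (46.9% of all genes raised at 1 week were). Ccn2, a secreted matricellular protein that SRF and YAP both activate, stood at 35.7 and 33.6 CPM in control and 156 and 157 CPM in KO. KO was above control by more than 4-fold in each pairing of libraries (2.18 ± 0.044, adjusted p = 7.7e-46), and its relative Ccn1 went from 32.4 and 33.5 CPM to 96.8 and 95.1 CPM (1.54 ± 0.042). Among the contractile members, the smooth muscle light chain Myl9 rose from 91.1 and 97.6 CPM to 222 and 224 CPM (1.24 ± 0.037), the tropomyosin Tpm2 from 20.1 and 21 CPM to 47 and 49.6 CPM (1.23 ± 0.058), and smooth muscle actin Acta2 from 1124 and 1087 CPM to 1718 and 1735 CPM (0.64 ± 0.027). Vcl, Tpm4 and Lima1 did not pass the test, at 0.03, 0.09 and 0.28. Myocd, the cardiac and smooth muscle coactivator of SRF, was lower in KO, 122 and 115 CPM in control against 76.2 and 77.7 CPM (-0.62 ± 0.039), while the coactivator gene Mrtfa was higher (0.31). Markers of smooth muscle and pericytes, several of which are SRF targets, were less uniform: 7 of 13 rose and 3 fell (median 0.22). Their summed level was 2717 to 2746 CPM in control and 3327 to 3340 CPM in KO. The sum includes Acta2, whose own rise, given above, was about as large as that of the sum. Cardiac fibroblast markers rose in 14 of 14 cases, from 1609 to 1625 CPM in control to 2806 to 2828 CPM in KO. Their part in the result was not tested.

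SRF binds a sequence named the CArG box and CREB the palindrome TGACGTCA, so the promoter windows of RefSeq (GRCm38.p6, 250 bases before to 50 after each start) were searched for both on both strands. Windows were found for 10563 of the tested genes. A CArG box lay in 5 of 16 SRF list members with a window (31.2%), against 1.52% of the tested genes with a window. Since the list was made of known SRF targets, a high share was likely from the outset and says nothing about the KO. The box lay in 11 of 500 genes that were at least 2-fold higher (2.2%) and 3 of 135 that were at least 2-fold lower (2.22%). The CREB palindrome lay in 2 of 16 members of the cyclic AMP list (12.5%), against 3.41%, and in 8 of 135 genes that were at least 2-fold lower (5.93%) and 11 of 500 that were at least 2-fold higher (2.2%). The 7 promoters below are shown because they hold one of these motifs and belong to genes that differ in direction. They give the 250 bases before the start, 5′ to 3′, with the motif in capitals; they were chosen after the values were seen.
Myl9 (higher, chr2:156775214-156775463, plus strand): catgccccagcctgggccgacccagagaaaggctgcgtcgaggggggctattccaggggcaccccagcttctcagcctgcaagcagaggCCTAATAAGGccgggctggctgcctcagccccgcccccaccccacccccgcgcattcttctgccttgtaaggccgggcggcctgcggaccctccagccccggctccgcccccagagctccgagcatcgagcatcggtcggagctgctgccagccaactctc
Cnn2 (higher, chr10:79988350-79988599, plus strand): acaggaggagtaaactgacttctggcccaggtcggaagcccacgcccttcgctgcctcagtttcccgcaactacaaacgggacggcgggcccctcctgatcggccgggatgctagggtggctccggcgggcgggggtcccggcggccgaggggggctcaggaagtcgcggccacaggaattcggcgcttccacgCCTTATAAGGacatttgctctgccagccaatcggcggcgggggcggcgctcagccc
Vcl (not called, chr14:20929148-20929397, plus strand): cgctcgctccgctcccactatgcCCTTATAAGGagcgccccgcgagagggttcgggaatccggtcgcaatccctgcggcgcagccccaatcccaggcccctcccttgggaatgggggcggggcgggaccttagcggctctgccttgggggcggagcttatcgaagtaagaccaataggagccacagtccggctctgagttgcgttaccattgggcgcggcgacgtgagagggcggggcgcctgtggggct
Stbd1 (lower, chr5:92602801-92603050, plus strand): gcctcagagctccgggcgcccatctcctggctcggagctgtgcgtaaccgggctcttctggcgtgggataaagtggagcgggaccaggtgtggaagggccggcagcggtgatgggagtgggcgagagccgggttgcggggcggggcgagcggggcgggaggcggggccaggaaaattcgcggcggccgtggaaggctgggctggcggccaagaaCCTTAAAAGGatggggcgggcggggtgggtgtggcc
Ltbp1 (lower, chr17:75005279-75005528, plus strand): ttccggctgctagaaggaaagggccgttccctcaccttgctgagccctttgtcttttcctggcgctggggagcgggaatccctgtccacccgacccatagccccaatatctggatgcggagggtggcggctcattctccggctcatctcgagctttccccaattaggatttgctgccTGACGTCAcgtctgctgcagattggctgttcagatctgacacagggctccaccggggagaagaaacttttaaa
Dusp1 (lower, chr17:26508473-26508722, minus strand): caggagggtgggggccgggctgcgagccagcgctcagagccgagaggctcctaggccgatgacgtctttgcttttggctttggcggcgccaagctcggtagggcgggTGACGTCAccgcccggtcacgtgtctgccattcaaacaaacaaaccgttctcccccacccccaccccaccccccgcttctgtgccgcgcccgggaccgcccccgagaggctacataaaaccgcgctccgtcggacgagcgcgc
Btg2 (higher, chr1:134079156-134079405, minus strand): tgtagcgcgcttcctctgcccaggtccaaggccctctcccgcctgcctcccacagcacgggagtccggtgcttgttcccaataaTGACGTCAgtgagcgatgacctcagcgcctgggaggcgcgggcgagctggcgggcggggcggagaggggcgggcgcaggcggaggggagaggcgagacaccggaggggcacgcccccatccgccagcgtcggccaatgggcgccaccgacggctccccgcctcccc
The Ltbp1 window is 1 of 2 that RefSeq gives for the gene. The first 4 hold a CArG box, whose first base lies 161, 56, 227 and 36 bases before the start, and the last 3 the CREB palindrome, at 73, 143 and 166 bases. None of these matches overlapped another searched motif, and a match is a run of letters rather than a known binding site. The CArG box was present in genes that rose (Myl9, the calponin Cnn2 at 0.69), in the cytoskeletal linker Vcl, which was not called, and in Stbd1, which fell. Ltbp1, which binds latent TGF-β in the matrix, went from 79.9 and 79.2 CPM to 34.7 and 34.7 CPM (-1.20 ± 0.046), and Dusp1, a phosphatase of MAP kinases on both the cyclic AMP and the immediate early list, from 87 and 90.9 CPM to 71.2 and 72.6 CPM (-0.31 ± 0.038). The palindrome was present in risen genes too, among them the immediate early genes Btg2, which restrains cell growth (31.8 and 36.4 CPM in control and 82.5 and 82.6 CPM in KO; 1.26 ± 0.049), and Maff (0.33 ± 0.13).

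Of 28 immediate early genes 19 rose and 3 fell, with a median of 0.84. Egr1, a zinc finger factor induced within minutes by growth signals, stood at 31.6 and 35.3 CPM in control and 152 and 152 CPM in KO. The groups did not overlap, as in 70.6% of all genes tested, and differed by 2.17 ± 0.043 (adjusted p = 4.3e-47). Junb went from 10.7 and 15.3 CPM to 40.7 and 39.6 CPM (1.59 ± 0.17) and the cytokine signalling inhibitor Socs3 from 3.02 and 3.33 CPM to 7.35 and 8.13 CPM (1.27 ± 0.12). Fosl2, Dusp1 and Klf2 were the 3 that fell, at -0.79, -0.31 and -0.18. At 3 weeks 8 of the 19 risen members were higher again (46.9% of all genes raised at 1 week were). Egr1 was then lower in KO (-0.38) and Fos did not pass the test (-0.05, adjusted p = 0.32). In an edgeR fit of a single KO effect over both ages 12 of the 28 were higher.

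Fuel oxidation genes were mostly lower, and most of those that fell were lower at 3 weeks as well. In the list for fatty acid uptake, storage and oxidation 31 of 39 members fell and 2 rose (median -0.23), and 30 of the 31 were lower at 3 weeks as well. The largest fall was that of Dgat2, which makes triglycerides, from 86.6 and 88.6 CPM to 43.7 and 45 CPM. Neither library of KO came near control (-0.98 ± 0.039, adjusted p = 6e-31). The thioesterase Acot1 (-0.54 ± 0.086), the electron transfer flavoprotein Etfa (-0.37) and the fatty acid transporter Cd36 (-0.26) were lower too. Ucp2, a mitochondrial carrier also abundant in immune cells, rose from 281 and 288 CPM to 371 and 378 CPM (0.40 ± 0.032).

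At the entry of pyruvate into the citric acid cycle, both sides of the switch that controls pyruvate dehydrogenase were lower. Its inhibitory kinases fell, Pdk4 from 1308 and 1296 CPM to 895 and 892 CPM (-0.54 ± 0.027) and Pdk1 from 143 and 139 CPM to 106 and 102 CPM (-0.43 ± 0.036). The activating phosphatase Pdp1 fell from 23.5 and 23.1 CPM to 14.6 and 15.3 CPM (-0.65 ± 0.068). In the whole list for the cycle and the dehydrogenase 18 of 31 fell and 1 rose (median -0.15), with Idh2 at 1477 and 1490 CPM in control and 929 and 907 CPM in KO. The riser was pyruvate carboxylase, Pcx (0.47). Citrate synthase, Cs, did not pass the test (0.05).

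Catabolism of branched-chain amino acids and ketones split. Of 21 genes 13 fell and 3 rose, and 11 of the 13 were lower at 3 weeks too. Dbt, the core of the branched-chain keto acid dehydrogenase, fell from 23.8 and 24 CPM to 18.2 and 17.8 CPM (-0.41 ± 0.062) and Mcee by a like step (-0.39 ± 0.053). Oxct1, which lets the heart burn ketones, went the other way, from 190.3 and 184 CPM to 233 and 228 CPM (0.30 ± 0.03), and the leucine enzyme Ivd rose from 49.3 and 50.3 CPM to 66.7 and 68.8 CPM (0.44 ± 0.042). The third riser was the ketone enzyme Bdh1 (1.00 ± 0.37, adjusted p = 0.023). Oxct1 and Ivd had the opposite sign at 3 weeks, at -0.39 and -0.60.

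Nuclear-encoded subunits of the respiratory chain fell as well, by small steps. Of 35 complex I subunits 22 fell and 0 rose (median -0.13), and all 22 were lower at 3 weeks. Ndufc2 stood out, with 91.2 and 96.3 CPM in control and 57.9 and 55.7 CPM in KO (-0.72 ± 0.041, adjusted p = 1.7e-23); the next largest falls were Ndufs1 and Ndufa1 (-0.33 and -0.33). Among complexes III to V 25 of 37 fell and 1 rose (median -0.17), with Cox7b at -0.33 ± 0.031 and Uqcrc2 at -0.30 ± 0.029. Of the 13 protein genes of the mitochondrial genome 7 fell, led by mt-Nd6, 19760 and 19610 CPM in control and 14980 and 15290 CPM in KO (-0.38 ± 0.021). Mitochondrial ribosomal proteins split 7 higher and 4 lower of 30 (median -0.03), with 36.7% called against 43% of all genes tested. The number lower depended on which library was left out. At 3 weeks 25 of the 30 were lower (3635 of all 14665 genes tested were).

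Among nuclear receptors and regulators of mitochondrial biogenesis 14 of 36 fell and 10 rose (6 rose without control library 1, and 6 without KO library 1). Besides Ppargc1a, the falls included the mineralocorticoid receptor Nr3c2 (16.5 and 17 CPM and 10.5 and 10.4 CPM; -0.68 ± 0.077), the respiratory chain activator Gabpa (-0.49 ± 0.049), the fatty acid receptor Ppara (-0.45 ± 0.067) and the estrogen-related receptor Esrrg (-0.41 ± 0.05). Ppard was higher, at 15.8 and 16.8 CPM in control and 23.7 and 23.9 CPM in KO (0.53 ± 0.063), and so was Esrra (0.20 ± 0.053). The mitochondrial transcription factor Tfam rose by a small step (0.16). Cardiomyocyte markers fell beside these lists, in 7 of 10 cases and 1 higher (median -0.22), with summed levels of 35620 to 36550 CPM in control and 34320 to 34670 CPM in KO. In bulk samples fewer cells of a type and less RNA per cell cannot be told apart.

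Glycolysis, glycogen and lipid synthesis did not follow one direction. Of 27 glucose uptake and glycolysis genes 12 rose and 6 fell (median 0.09; 3 fell without control library 2, and 3 without KO library 2), and 3 of the 12 were higher at 3 weeks too. The lactate exporter Slc16a3 rose from 4.03 and 3.64 CPM to 7.44 and 6.86 CPM (0.91 ± 0.12) and the phosphofructokinase Pfkp from 67.8 and 68.3 CPM to 99.6 and 100.2 CPM (0.55 ± 0.039). The fetal-type glucose transporter Slc2a1 rose (0.85), while the insulin-responsive Slc2a4 was slightly lower (-0.10). Hexokinase 2, Hk2, rose at 1 week (0.28 ± 0.037) and was lower in KO at 3 weeks (-0.70). In the glycogen list 9 of 23 fell and 4 rose (2 rose without KO library 1, 2 without KO library 2 and 2 with DESeq2). After Stbd1, the glycogen-targeting subunit Ppp1r3c fell from 93.5 and 94 CPM to 57.8 and 56.8 CPM (-0.71 ± 0.039) and the laforin gene Epm2a from 11 and 12 CPM to 8.69 and 8.31 CPM (-0.44 ± 0.086). Glycogen synthase, Gys1, rose (0.37 ± 0.039).

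Genes for cholesterol and fatty acid synthesis were mostly higher, with 16 of 24 up, 3 down and a median of 0.46. Squalene epoxidase, Sqle, rose from 5.08 and 5.74 CPM to 9.39 and 9.82 CPM (0.81 ± 0.12), the sterol-sensing transcription factor Srebf2 from 31.6 and 33.7 CPM to 51.8 and 50.7 CPM (0.65 ± 0.051) and its brake Insig1 from 8.02 and 8.94 CPM to 12.9 and 13.4 CPM (0.62 ± 0.087). The groups did not overlap in any of these 3 genes, as in 70.6% of all genes tested. At 3 weeks 6 of the 16 were higher again (46.9% of all genes raised at 1 week were).

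Ubiquitin ligases of muscle and autophagy genes fell together, 16 of 19 lower and 1 higher (median -0.29), and 13 of the 16 were lower at 3 weeks. The ligase atrogin-1, Fbxo32, stood at 68.5 and 71.7 CPM in control and 39.9 and 39.9 CPM in KO. The groups were separate (-0.82 ± 0.04, adjusted p = 3.8e-26). The 3 MuRF ligases, which sit on the sarcomere, were lower as well, Trim54 at -0.60 ± 0.083, Trim55 at -0.52 ± 0.034 and Trim63 at -0.42 ± 0.034. The mitophagy kinase Pink1 (-0.40) and the transcription factor Foxo3 (-0.29) fell, while Foxo1 rose (0.18).

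More potassium channel and calcium release genes fell than rose, while sodium, pacemaker and gap junction genes had no main direction. Potassium channel genes split 12 lower and 6 higher of 20. At 3 weeks 3 of the 12 were lower again (49.4% of all genes lowered at 1 week were). Of the 6 risen genes 1 was higher again (46.9% of all raised genes were). Kcnj2, the main inward rectifier that sets the resting potential of ventricular cells, stood at 41.7 and 40.1 CPM in control and 19.7 and 19.2 CPM in KO. KO was less than 50% of control in every pairing of libraries (-1.07 ± 0.055, adjusted p = 2.8e-25). The transient outward current subunit Kcnip2 (-0.57 ± 0.039) and the sulfonylurea receptor Abcc9 (-0.53 ± 0.032) also fell, and Abcc9 was higher in KO at 3 weeks (0.26). The atrial channel subunit Kcnj3 was higher at 1 week (0.67 ± 0.077) and lower at 3 weeks (-0.92). Of 24 genes for calcium release and T-tubules 12 fell and 6 rose, and 9 of the 12 were lower at 3 weeks. Cacnb2, a subunit of the L-type calcium channel, went from 84.9 and 82.4 CPM to 43.7 and 43.7 CPM (-0.94 ± 0.044), a change that was not called at 3 weeks (0.10). Hrc, the calcium buffer of the sarcoplasmic reticulum, fell at both ages (-0.79 and -1.23). Bin1, which shapes T-tubules, rose from 7.51 and 7.79 CPM to 11.6 and 11.9 CPM (0.62 ± 0.093). Of 16 sodium, calcium and pacemaker channel and gap junction genes 5 rose, 4 fell and 7 did not pass the test (median 0.13). The pacemaker channel Hcn2 rose (0.77 ± 0.053) and Gja3 fell (-0.40 ± 0.066).

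The sarcomere list mixed fetal, adult, ventricular and atrial forms, and 10 of its 17 measured members fell while 5 rose. The fetal troponin Tnni1, which adult hearts replace by Tnni3, was at 518 and 542 CPM in control and 321 and 315 CPM in KO (-0.74 ± 0.034, adjusted p = 3.6e-26). Tnni3 changed less, 2188 and 2349 CPM against 1998 and 1960 CPM (-0.20 ± 0.035). On a per-length scale Tnni1 made up 11.9 and 11.7% of the sum of both genes in control and 8.42 and 8.44% in KO; at 3 weeks the share was 0.00573 and 0.00262% in control and 0.0583 and 0.0698% in KO. The M-band gene Myom2 fell from 1578 and 1602 CPM to 1104 and 1098 CPM (-0.53 ± 0.027). Adult myosin Myh6 was slightly higher in KO (0.14 ± 0.022) and fetal myosin Myh7 slightly lower (-0.12 ± 0.038), and Myh7 held 0.519 and 0.531% of their per-length sum in control and 0.439 and 0.445% in KO. Tnnt1 fell (-0.27 ± 0.074), while Ttn and Mybpc2 did not pass the test (-0.04 and 0.16). Of 25 genes of Z-disc, M-band and intermediate filaments 13 fell and 3 rose, with Csrp3 (-0.40 ± 0.031) and Nexn (-0.40 ± 0.031) lower and Fhl1 higher (0.37 ± 0.04).

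Atrial genes rose and ventricular genes fell at 1 week. In the atrial list 14 of 19 members rose and 1 fell (median 0.90). Bmp10, a growth factor of atrial muscle (chromosome 6, 87428994 to 87437677, GRCm38), was at 0.126 and 0.109 CPM in control and 179.5 and 179.9 CPM in KO. Myl7, the light chain of atrial myosin, went from 7.47 and 8.36 CPM to 92.9 and 96.3 CPM (3.56 ± 0.063), and the calcium pump inhibitor Sln at 0.588 and 0.793 CPM and 15.5 and 16.7 CPM (4.49 ± 0.15). KO exceeded control in both libraries for each of these. Per length, Myl7 made up 0.348 and 0.387% of the sum of Myl7 and ventricular Myl2 in control and 5.33 and 5.5% in KO. The thick filament gene Mybphl (4.11 ± 0.17), the secreted Dkk3 (2.48 ± 0.083) and Nppa, the atrial natriuretic peptide (2.46 ± 0.038), were likewise higher. At 3 weeks the atrial list split, with 9 of the 19 lower in KO and 7 higher (median -0.04). Of the 14 that rose at 1 week 4 were higher again. Some members reversed, and Bmp10 was then at 19.7 and 20.9 CPM in control and 0.0353 and 0.105 CPM in KO. Across the 4 groups the atrial genes Bmp10, Myl7, Myl4, Sln and Mybphl were thus high in the same 2 groups that held Y-linked transcripts. Nppa did not share this pattern and rose at 3 weeks too (2.51). In the fit of a single KO effect over both ages 5 of the 19 atrial genes were higher.

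Of 7 ventricular genes 6 fell and 0 rose (median -0.38), and 4 of the 6 were lower at 3 weeks. The light chain Myl2 went from 7078 and 7107 CPM to 5454 and 5468 CPM (-0.38 ± 0.023) and the gap junction gene Gja1 from 583 and 563 CPM to 366 and 369 CPM (-0.64 ± 0.031). Cardiac transcription factors fell in 15 of 33 cases and rose in 7 (4 rose without control library 1, 4 without KO library 2 and 3 with DESeq2). Gata6 (112 and 115 CPM against 68.7 and 70.2 CPM), Tbx20 (312 and 307 CPM against 192 and 189 CPM) and the YAP partner Tead1 (221 and 213 CPM against 158 and 164 CPM) were lower in every KO library. Their log2 fold changes were -0.71 ± 0.04, -0.70 ± 0.033 and -0.43 ± 0.033, and of the 15 that fell 3 were lower again at 3 weeks. Nkx2-5 did not pass the test (-0.22), nor did Mef2c (-0.09). The Notch target Hey1 rose from 4.24 and 4.97 CPM to 7.35 and 7.41 CPM (0.66 ± 0.12), and the conduction system factor Tbx3 rose as well (0.32 ± 0.1).

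**Figure D3:**
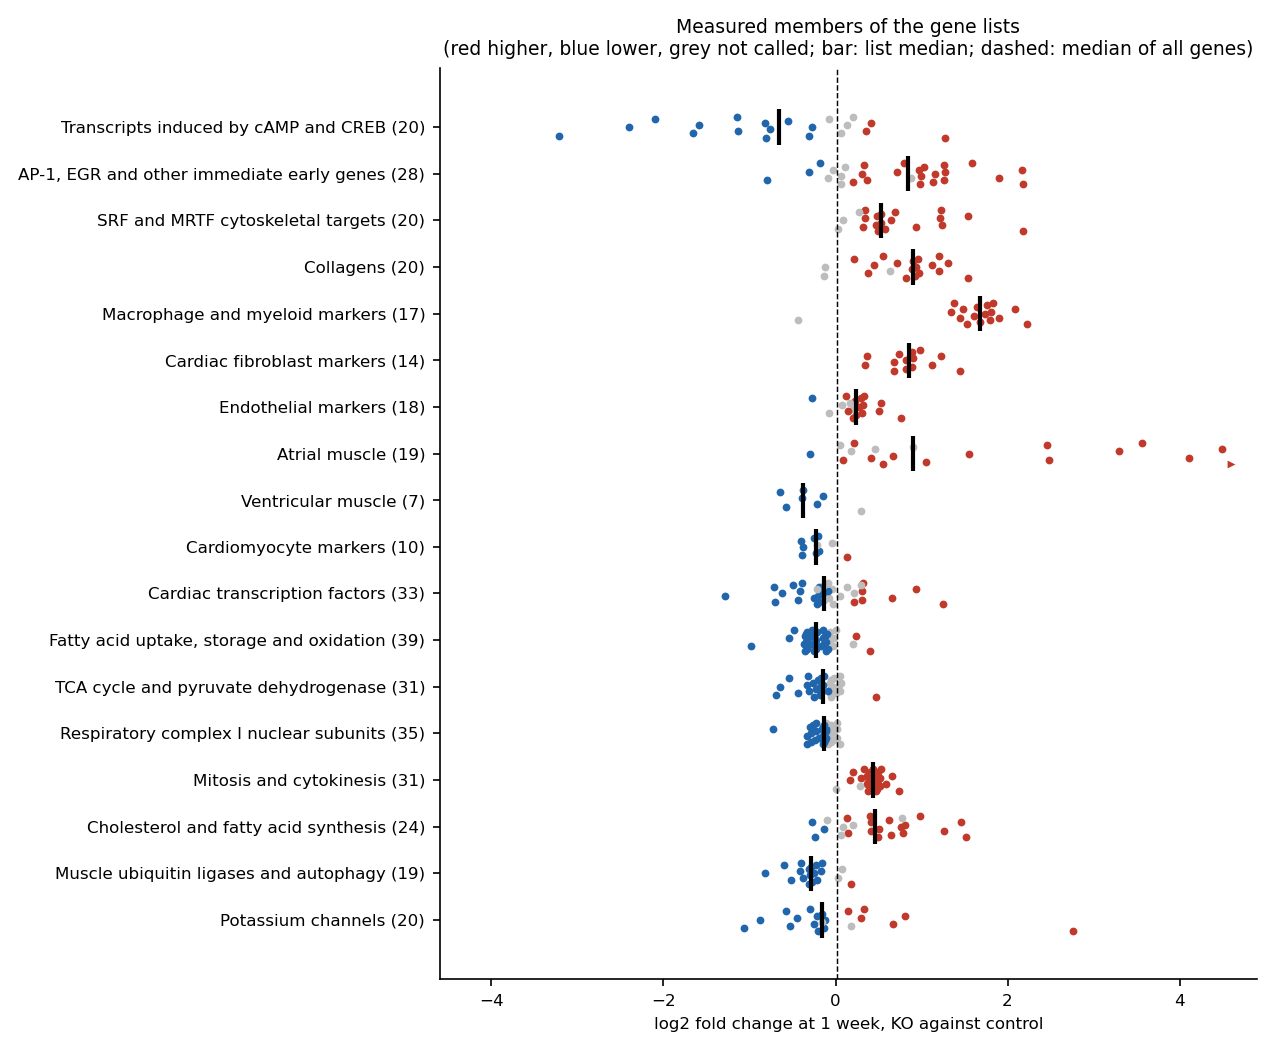
Log2 fold changes at 1 week of every measured member of 18 gene lists (number of members in brackets), with the list median as a bar and the median of all genes tested, 0.02, as a dashed line. Bmp10, at 10.55, lies beyond the right edge and is drawn as a triangle; the cyclic AMP list has a median of -0.65, the SRF list of 0.53 and the macrophage markers of 1.68.

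Genes of the extracellular matrix rose nearly without exception. In the collagen list 17 of 20 rose and 0 fell (median 0.90), and all 17 were higher at 3 weeks. The chains Col5a3, Col6a3 and Col8a1 went from 8.23 and 9.84, 34.9 and 33.6 and 3.86 and 3.83 CPM to 23.6 and 21.9, 78.2 and 79.5 and 9.05 and 8.55 CPM. KO was above control in each (1.31 ± 0.081, 1.21 ± 0.048 and 1.20 ± 0.11). Of 35 other matrix genes 33 rose and 0 fell, and 29 of the 33 were higher at 3 weeks. Podn, a small leucine-rich proteoglycan, stood at 2.85 and 3.20 CPM in control and 19.2 and 20.2 CPM in KO (2.68 ± 0.097, adjusted p = 3.8e-33). Thrombospondin 1, Thbs1, went from 40.6 and 40.5 CPM to 116 and 112 CPM (1.49 ± 0.045), fibromodulin, Fmod, from 2.39 and 2.46 CPM to 8.90 and 9.32 CPM (1.90 ± 0.12) and tenascin C, Tnc, from 3.90 and 4.59 CPM to 11.3 and 10.3 CPM (1.33 ± 0.11). Fmod was lower in KO at 3 weeks (-0.81). The rise in fibroblast markers given above, from 1609 to 1625 CPM in control to 2806 to 2828 CPM in KO, ran beside these genes and shares members with both lists. The defining fibroblast gene Tcf21 was listed at 0 in all libraries, and the part of fibroblasts in the result was not tested.

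Signalling ligands and receptors of the BMP, TGF-β, Notch, Wnt and FGF families rose in 23 of 48 cases and fell in 13. Apart from Bmp10, Dkk3, Tmem100 and Ltbp1, the TGF-β coreceptor Eng, abundant in endothelium, rose from 99.6 and 99.1 CPM to 170 and 168 CPM (0.77 ± 0.037). Bmp4 (0.87), Tgfb3 (0.72) and the Notch ligand Jag1 (0.64) were higher, and the coreceptor Tgfbr3 (-0.62) and Smad7, an inhibitor of the pathway (-0.32), lower. In the IGF list, which includes imprinted growth genes, 8 of 21 rose and 6 fell: Irs2 fell as above, while the binding proteins Igfbp4 (0.47 ± 0.057) and Igfbp7 (0.63 ± 0.039) and the imprinted noncoding RNA Meg3 (0.52 ± 0.066) rose.

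Markers of macrophages had the highest median of the cell type lists with at least 10 measured members. The 9 measured lymphocyte markers, at very low levels, had a higher one (2.67). Of 17 markers 16 rose, each at least 2-fold (4.92% of all genes tested did), and 0 fell (median 1.68); their summed level was 60.8 and 62.6 CPM in control and 201 and 194 CPM in KO. The fractalkine receptor Cx3cr1 stood at 2.10 and 2.00 CPM in control and 9.39 and 9.66 CPM in KO (2.22 ± 0.13, adjusted p = 3e-22). Mrc1, a marker of resident macrophages, was at 7.56 and 8.23 CPM and 25.9 and 23.7 CPM (1.64 ± 0.078), and the complement component C1qa at 5.71 and 5.55 CPM and 21.7 and 20.01 CPM (1.90 ± 0.086). Both groups were tight and separate for all 3. At 3 weeks 14 of the 16 were higher again, by less: C1qa at 0.58 and Mrc1 at 0.38. Itgam was listed at 0 in all libraries and the neutrophil gene S100a8 did not pass the test (-0.44). Of 16 complement genes 14 rose and 0 fell, with C3 at 5.41 and 4.59 CPM in control and 39.5 and 39.3 CPM in KO (3.00 ± 0.077); C3 was lower in KO at 3 weeks (-0.50). In the list for phagocytosis, antigen presentation and chemokines 24 of 29 rose and 2 fell, among them the phagocytic receptor Axl (0.88 ± 0.05), cathepsin S, Ctss (1.61 ± 0.13), and the coagulation factor F13a1 (1.69 ± 0.13). The part of macrophages in these lists was not tested.

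Of 9 lymphocyte markers 6 rose (23% of all genes tested were higher) and 0 fell, from very low levels. Cd4 went from 0.252 and 0.437 CPM to 2.83 and 2.62 CPM, and Cd8a from 0 and 0.0547 CPM to 1.71 and 2.25 CPM. Cd8a could not have passed the count filter on its control libraries at 1 week, and 3 other listed members did not pass it. The count of rises may therefore partly reflect the filter. At 3 weeks 2 of the 6 were higher again. The B cell markers Cd79a and Cd79b did not pass the test (-0.38 and -0.40). Of 12 epicardial and mesothelial markers 9 rose and 0 fell, with summed levels of 53.8 and 55.7 CPM in control and 87.7 and 86.6 CPM in KO. Upk3b went from 2.06 and 2.21 CPM to 10.1 and 9.77 CPM (2.20 ± 0.12) and Aldh1a2, which makes retinoic acid, from 9.36 and 8.42 CPM to 17.6 and 17.1 CPM (0.97 ± 0.085), whereas Wt1 did not pass the test (-0.12). At 3 weeks 1 of the 9 was higher in KO and 8 of the 12 were lower. Endothelial markers rose by smaller steps, 13 of 18 higher and 1 lower (median 0.23), with Emcn at 0.33 ± 0.058 and Vwf at 0.51 ± 0.055. Of 7 red cell and platelet genes 4 fell and 1 rose, with the β-globin Hbb-bs at 42.2 and 48.6 CPM in control and 23 and 21.8 CPM in KO (-1.03 ± 0.07). At 3 weeks 0 of the 4 were lower again and the 1 riser was higher again.

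**Figure D4:**
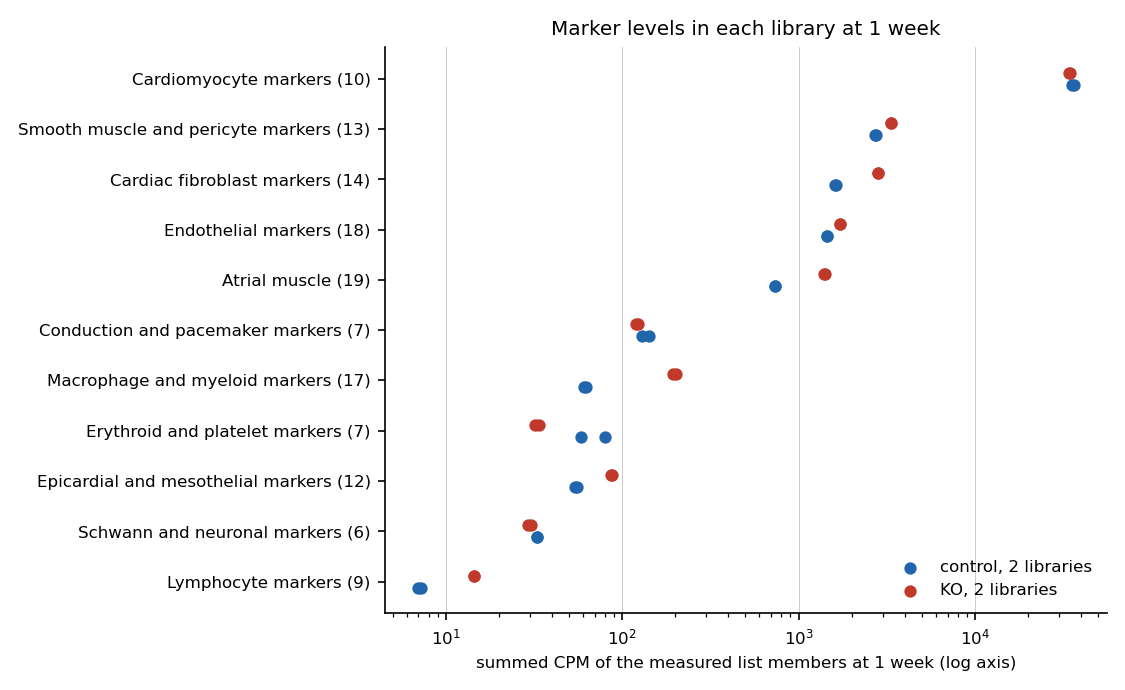
Summed CPM of the measured members of 10 cell type lists and the atrial list in each library at 1 week (horizontal log axis; number of members in brackets). Macrophage markers stood at 60.8 and 62.6 CPM in control and 201 and 194 CPM in KO, while cardiomyocyte markers stood at 35620 and 36550 CPM in control and 34670 and 34320 CPM in KO.

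Genes of mitosis were higher by similar small steps, and 29 of 31 rose (median 0.43) while 0 fell. DESeq2 called 17 of them. The spindle checkpoint kinase Bub1b went from 9.11 and 9.76 CPM to 15.6 and 16 CPM (0.74 ± 0.085) and the mitotic kinase Aurka from 7.60 and 7.19 CPM to 11.5 and 10.6 CPM (0.59 ± 0.099). At 3 weeks 17 of the 29 were higher. Of 27 S phase genes 11 rose and 0 fell (6 were higher with DESeq2), for example Pcna (0.43 ± 0.056) and the DNA ligase Lig1 (0.44 ± 0.077). The D-type cyclins, which drive entry into the cycle, went in opposite directions. Ccnd1 rose from 27.2 and 29.5 CPM to 38.4 and 35.1 CPM (0.37 ± 0.059), and Ccnd2 fell from 234 and 225 CPM to 139 and 141 CPM (-0.71 ± 0.034). The inhibitor Cdkn1b fell (-0.39 ± 0.061) and the p53 gene Trp53 rose (0.25 ± 0.073). The counts do not show which cells carried these transcripts. Markers of fibroblasts, macrophages and endothelium rose as well, as given above, and the part of these cells in the mitosis result was not tested.

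Stress, antioxidant and ribosomal protein genes changed in both directions. In the integrated stress and unfolded protein response 16 of 29 rose and 6 fell (3 fell without control library 1). The factor Atf5 (0.73 ± 0.078), the sestrin Sesn2 (0.65 ± 0.12) and the serine synthesis enzyme Psat1 (0.64 ± 0.1) were higher, whereas the amino acid transporter Slc3a2 fell from 67.4 and 66.4 CPM to 36.8 and 36.5 CPM (-0.87 ± 0.047). Antioxidant genes split 9 lower and 8 higher of 28 (4 were higher without control library 2, 4 without KO library 1 and 5 with DESeq2). The secreted peroxidase Gpx3 rose from 57.8 and 57.4 CPM to 139 and 139 CPM (1.27 ± 0.038) and heme oxygenase Hmox1 from 7.01 and 5.47 CPM to 12.3 and 12.4 CPM (1.01 ± 0.099). The quinone reductase Nqo1 fell (-0.83 ± 0.09), as did the mitochondrial peroxidase Prdx3 (-0.52 ± 0.038). Of 35 ribosomal proteins of the large subunit 16 rose and 3 fell (median 0.12), with Rpl15 at 0.37 ± 0.07 and Rpl12 at 0.29 ± 0.051; many have processed copies that can share reads. Of 24 interferon response genes 6 rose (25%; 3 with DESeq2) and 0 fell, near the 23% of all genes tested.

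Known substrates and partners of CARM1 changed in both directions, with 9 of 27 higher and 7 lower (59.3% called, against 43% of all genes tested). The chromatin remodelling subunit Smarcc1, a CARM1 substrate, fell from 56.1 and 54.6 CPM to 43.2 and 42.2 CPM (-0.37 ± 0.047), and the coactivator Ncoa2 fell by -0.31 ± 0.047. Of the other arginine methyltransferases, Prmt5 rose from 27.5 and 27.1 CPM to 32.8 and 31.4 CPM (0.24 ± 0.056) and Prmt2 was lower (-0.28 ± 0.079); besides Carm1, none of the 8 was lower without control library 2, without KO library 1 or with DESeq2. Prmt1, the most active enzyme of the family in many cells, did not pass the test (0.00).

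Set against 3 weeks, about 1 in 2 of the changes at 1 week was found again. Of the 6305 genes called at 1 week 3029 (48%) were called in the same direction at 3 weeks, 915 (14.5%) in the opposite direction and 2361 (37.4%) not at all. The 3029 genes were 42% of the 7212 called at 3 weeks (49.2% of those tested). The difference between the 2 effects passed its own test for 5215 genes (35.6%). Of the 222 genes at least 2-fold lower at 1 week, 63 (28.4%) were lower and 43 (19.4%) higher at 3 weeks. By list, the genes called at 1 week were called in the same direction at 3 weeks in 30 of 31 falls of fatty acid genes and 17 of 17 rises of collagens, but in 4 of 14 rises of atrial genes and 1 of 9 rises of epicardial markers.

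**Figure D5:**
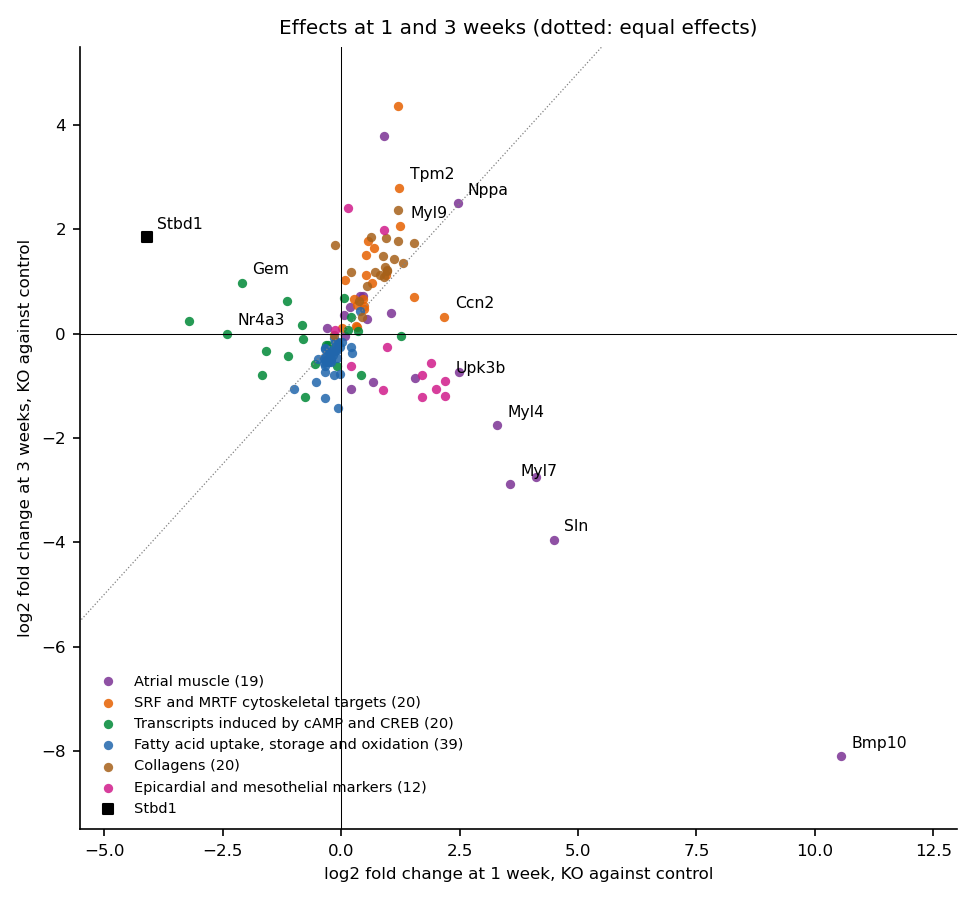
Log2 fold changes of KO against control at 1 week (horizontal) and 3 weeks (vertical) for the measured members of 6 gene lists and Stbd1. Collagens and SRF targets lie mostly in the upper right and fatty acid genes in the lower left, while Bmp10 (10.55 and -8.10), Myl7 (3.56 and -2.89) and Stbd1 (-4.10 and 1.86) lie in the quadrants of opposite sign.

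Among X-linked genes that escape inactivation, Kdm6a went from 30.4 and 26.5 CPM in control to 15.1 and 13.4 CPM in KO (-0.98 ± 0.068), Eif2s3x from 39.2 and 39.5 CPM to 22 and 20.3 CPM (-0.90 ± 0.057) and Ddx3x from 311 and 304 CPM to 173 and 170.3 CPM (-0.84 ± 0.033). All 3, with Kdm5c (-0.48), were higher in KO at 3 weeks, at 0.70, 0.74, 0.62 and 0.85. Their Y-linked partners moved in the opposite sense at each age. Eif2s3y, with 0 counts in control and 3947 in KO at 1 week, was at least 966-fold higher when the control group's 0 was set to a floor of 3 counts in all, Uty at least 263-fold and Kdm5d at least 238-fold. For Ddx3y, which had 1 count in control, the ratio was 2430, with a 95% counting interval of 436 to 96000. These bounds cover counting error only.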

How the data were processed

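The sources used here give neither tool versions nor the strand setting of the counting. Per the submitters' processing notes the tools were FastQC, HISAT2, featureCounts, DESeq2 and MultiQC with the mm10 build, and per the labels' protocols libraries were made with SMART and Nextera XT kits. The authors deposited whole-number counts per gene for 8 libraries, not normalized, with 54752 gene IDs, of which 54723 matched GENCODE M21 names on GRCm38.

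Genes were kept by edgeR's filter (minimum count 10, minimum total 15), scaled by TMM (factors 0.759 to 1.23) and fitted in 1 robust quasi-likelihood model of 4 groups with 2 libraries each (4 residual degrees of freedom; R 4.3.3, edgeR 4.0.16, limma 3.58.1), without a block. P-values were Benjamini-Hochberg adjusted over all 14665 genes tested, with 0.05 as the threshold for a call. The SE is the absolute log2 fold change divided by the square root of F. On data simulated for the comparison at 1 week (14244 genes, 50 changed per fold size), 64% of genes changed 1.25-fold, 84% changed 1.5-fold, 94% changed 2-fold and 98% changed 4-fold were called. The changed genes were drawn only from those above a minimum expected count in every library. These shares therefore do not cover genes with few counts. Depth ranged from 20818285 to 36136575 counts per library at 1 week, and the common coefficient of variation was 3.03%. Within groups, the counts varied beyond sampling noise (chi-square per gene 3.2 in control, 1.45 in KO), so no library was taken as deposited in duplicate.

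The comparison, the 57 gene lists and their members were chosen with earlier results of these data known. The rule for named genes took Carm1, the 15 largest rises and falls with a mean of at least 10 CPM apart from Y-linked genes, up to 4 called members per list with at least 5 CPM, and all measured sarcomere, Y-linked and X-escaping members. Other genes named were chosen after their values were seen, and a few genes are not reported here. Alternatives were RLE scaling, no filter, DESeq2 1.42.0, the 1 week libraries alone, leaving out mitochondrial genes, a replicate block, a single KO effect over both ages and leaving out each library; those for the 3 week libraries were added after seeing the data.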

Additional observations from a re-analysis of the deposited data

Results flagged for a closer look

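Among Carm1 and the genes named for the size of their change, the effect of KO differed between the ages by the test of the difference itself (edgeR, log2 fold change at 3 weeks less that at 1 week) in the genes below. Each value of the difference is followed, in brackets, by the log2 fold changes at 1 and at 3 weeks.

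Fold changes of opposite sign were seen for Bmp10 by -18.65 (10.55 and -8.10), Myl7 by -6.45 (3.56 and -2.89), Myl4 by -5.05 (3.30 and -1.75) and Gm6969 by -3.71 (3.60 and -0.11). The sign also differed for C3 by -3.50 (3.00 and -0.50), Dkk3 by -3.20 (2.48 and -0.73), Egr1 by -2.55 (2.17 and -0.38), Gem by 3.08 (-2.10 and 0.98) and Stbd1 by 5.95 (-4.10 and 1.86).

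Among genes higher in KO at 1 week without a change of sign, the difference was seen for Ccn2 by -1.85 (2.18 and 0.33), C1qa by -1.31 (1.90 and 0.58), Mrc1 by -1.26 (1.64 and 0.38) and C1qc by -1.14 (1.84 and 0.70). It was also seen for Podn by -1.05 (2.68 and 1.63), C1qb by -0.99 (1.76 and 0.77) and Laptm5 by -0.76 (1.68 and 0.92).

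Among genes lower in KO at 1 week, the difference was seen for Gcnt1 by -1.02 (-2.13 and -3.14), Gm48111 by -0.35 (-1.38 and -1.73), Carm1 itself by -0.34 (-0.83 and -1.17) and Snap91 by 0.53 (-2.02 and -1.49). Lower genes with a difference also included Ppargc1a by 0.86 (-1.66 and -0.80), Homer2 by 1.24 (-1.45 and -0.21), Sik1 by 1.26 (-1.59 and -0.33) and Dusp5 by 1.35 (-1.69 and -0.34). The remaining lower genes were Epb41l3 by 1.49 (-1.53 and -0.04), Tmem100 by 1.67 (-2.14 and -0.47) and Nr4a3 by 2.40 (-2.40 and 0.00).

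The cause of these differences was not tested. Age, the labelled injection day and the presence of Y-linked transcripts differ between the groups of libraries that they compare.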

How the results depend on the processing

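With DESeq2 in place of edgeR 4043 genes were called at 1 week, 2002 of them higher (49.5% against 53.5%), and 3351 for the difference between the ages; the cause was not tested. Leaving out 1 library at a time, of either age, gave between 4859 and 6529 calls at 1 week, 2575 to 3234 higher, 2237 to 3295 lower, 859 to 971 of at least 2-fold and 4355 to 4906 for the difference between the ages. Under the other alternatives run, these 5 counts stayed within 1.5 times. Numbers of libraries did not pair them: deviations of same-numbered libraries correlated at -0.016 at both ages, and with a replicate block 6294 genes were called and 2 of 212 named genes lost their call.

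A single KO effect over both ages kept the call of 148 of 212 named genes, and 48 were no longer called. It reversed 15: Cacna1g (0.30), Ccnd2 (0.02), Ddx3y (-0.29), Eif2s3y (-0.20), Hk2 (-0.21), Ivd (-0.09), Kcnj3 (-0.19), Kdm5c (0.19), Kdm5d (-0.19), Myh6 (-0.11), Npr3 (-0.06), Prmt2 (0.16), Tnni1 (0.12), Uty (-0.45) and Vwf (-0.03). By construction it averages opposite effects. Of 114 list counts 47 moved by over 1.5 times under it and 15 under DESeq2. With 2 libraries a group, an exact permutation test of a single gene cannot go below 0.333, so every call rests on a spread shared across genes.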

Other observations

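Smaller gene groups that were not described above are given here. Of 24 cardiac splicing and RNA binding regulators 12 fell and 4 rose (2 rose without KO library 1), with 66.7% called, against 43% of all genes tested. Qk, which controls splicing of sarcomere transcripts, went from 535 and 514 CPM to 367 and 368 CPM (-0.51 ± 0.031), Rbfox1 from 30.5 and 30.2 CPM to 22 and 22.1 CPM (-0.46 ± 0.057) and Rbm24 from 270.1 and 280.1 CPM to 202 and 204 CPM (-0.44 ± 0.033). Ptbp1, which represses muscle exons and is high in immature and dividing cells, rose from 9.86 and 13.4 CPM to 19.7 and 20.1 CPM (0.74 ± 0.085). Of the 12 lower regulators 5 were lower again at 3 weeks (49.4% of all genes lowered at 1 week were).

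In the circadian clock list 8 of 16 genes fell and 0 rose (median -0.14), with 50% called, against 43% of all genes tested. Npas2, a partner of the clock activator Arntl, fell from 12 and 12.7 CPM to 7.21 and 7.28 CPM (-0.78 ± 0.091), Nr1d2 from 46.6 and 45.9 CPM to 33.9 and 34.3 CPM (-0.44 ± 0.047) and the repressor Cry2 from 16 and 16.9 CPM to 12.1 and 13.1 CPM (-0.39 ± 0.079). Arntl and Per2 did not pass the test, at 0.11 and 0.01. The hour of tissue collection is not given in the sources used here. Aminoacyl-tRNA synthetases rose in 8 of 20 cases and fell in 1, with 45% called, near the 43% of all genes tested. The number that rose was 5 without control library 1 and 5 with DESeq2. The largest rises were those of Aars (0.42 ± 0.043) and Vars (0.39 ± 0.066), and 0 of the 8 risen genes were higher at 3 weeks. Heat shock genes split 8 lower (5 without KO library 2) and 5 higher of 26, with 50% called. The small heat shock protein Hspb6 was higher (0.48 ± 0.031) and the mitochondrial chaperonin Hspd1 lower (-0.24 ± 0.036). In phosphagen transfer, brain-type creatine kinase Ckb rose from 38.5 and 43 CPM to 73 and 72.6 CPM (0.83 ± 0.049), while the oxygen carrier Mb was at 4997 and 4958 CPM in control and 4446 and 4395 CPM in KO (-0.17 ± 0.023).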
